A study of Mus musculus with 6 samples.

Results

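The genes described here carry out and regulate mitochondrial fusion: Mfn1 and Mfn2, which encode the mitofusins, Opa1, the inner-membrane protease genes Yme1l1 and Parl, and Pld6. These 6 genes were taken by name from the 55291 genes listed in the deposited tables, and each matched 1 row. Reads were counted for 5 of them, and those 5 were among the 14290 genes tested. Pld6 had no read in any library.

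The data were RNA-seq of wild-type (WT) mouse embryonic fibroblasts (MEFs), with 2 libraries in each of 3 groups. Cells received vehicle, MASM7 at 1 μM for 6 h or MFI8 at 20 μM for 6 h. The study describes MASM7 as a small molecule that activates mitofusins and MFI8 as a small molecule that inhibits them, and the comparisons ask what each does to transcripts. All groups came from the same established WT line, obtained from another laboratory, so they speak for that line only. How long vehicle was applied is not given in the sources used here. The libraries of a group were described in the deposited design text as independent biological replicates. Because the compounds were used at different concentrations, the compound and its concentration cannot be told apart.

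Mitochondria join their membranes in steps. MFN1 and MFN2 are large GTPases of the outer membrane that tether and fuse neighbouring mitochondria, and OPA1 is a dynamin-related GTPase that fuses the inner membrane and shapes cristae. YME1L1, an ATP-dependent protease facing the intermembrane space, and OMA1, a stress-activated metalloprotease, cut OPA1 from its long membrane-bound forms to short forms. PARL is a rhomboid protease that cuts within the inner membrane and processes proteins such as PINK1, PGAM5 and STARD7. PLD6, also called MitoPLD, is an outer-membrane enzyme that acts on cardiolipin and also takes part in piRNA production in the germ line. OPA1 cutting is a protein event, and gene-level counts report neither it nor the splice forms of Opa1.

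In GENCODE vM21 (GRCm38), Mfn1 spans chr3:32529465-32579239 on the plus strand, and Mfn2 spans chr4:147873599-147904704 on the minus strand. Opa1 lies at chr16:29579334-29654884 (plus) and Parl on the same chromosome at chr16:20279818-20302387 (minus). Yme1l1 lies at chr2:23156369-23199260 (plus) and Pld6 at chr11:59783897-59787645 (minus). All 6 are protein-coding, and 0 bases of their exons are shared with exons of another gene. The span of Mfn2 holds a processed pseudogene, Gm13156, on the opposite strand, which had 0 counts. Opa1 has 8 annotated transcripts in 30 merged exons, and Mfn1 has 10 in 18.

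All 6 genes were found in RefSeq's promoter sequences (GRCm38.p6), and the 250 bases before the most upstream start were searched on both strands for letters of common promoter elements, chosen after the sequences were seen. No value of these libraries bears on the stretches below, which are shown so that the starts of the mitofusin genes and Opa1, all read here, can be set beside that of Pld6, which was not. Capitals mark the match: the ETS core CCGGAAG in Mfn1 (chr3:32529414-32529464, plus strand), the GC box CCGCCC in Mfn2 (chr4:147904952-147905005, minus strand), the NRF-1 core GCATGCGC in Opa1 (chr16:29579253-29579308, plus strand) and the E-box CACGTG in Pld6 (chr11:59787661-59787714, minus strand). Each is written 5′ to 3′ in the direction of the gene.
Mfn1: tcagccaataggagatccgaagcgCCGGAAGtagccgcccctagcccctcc
Mfn2: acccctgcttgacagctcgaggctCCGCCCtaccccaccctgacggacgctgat
Opa1: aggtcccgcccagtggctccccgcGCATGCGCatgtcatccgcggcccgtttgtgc
Pld6: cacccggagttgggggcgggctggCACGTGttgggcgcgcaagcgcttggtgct

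The ETS core occurred in 3 of the 6 windows (Mfn1, Yme1l1 and Parl) and in 6.91% of all 32851 windows. The Yme1l1 and Parl matches lie in or across the first exon as GENCODE draws it and are not printed. The NRF-1 core was found in Opa1 alone of the 6 and in 2.26% of all windows, where it overlaps its own reverse complement, and the E-box in Pld6 alone and in 6.02%. GGGCGG or its complement CCGCCC was present in 5 of 6 windows, against 32.7% of all, and CCAAT in 4 of 6, against 33.8%. TATAAA was absent from all 6 and present in 12.4% of all windows. Each of the 6 windows held 10 to 16 CpG dinucleotides, where the median window held 6. These are matches of letters and not mapped binding sites.

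Libraries held between 22791792 and 30677751 counted reads. Both MASM7 libraries (29881032 and 30611501) were deeper than both vehicle libraries (22924037 and 25068530), while MFI8 had the shallowest and the deepest library. Mitochondrially encoded genes took 1.66% and 1.82% of counts in the vehicle libraries, 1.51% and 1.61% in those of MASM7, and 1.37% and 1.43% in those of MFI8. Of 10 fibroblast markers 8 were above 1 TPM (a level corrected for gene length and library depth) in every library, Thy1 and Lum being below it, with a summed level of 5420 to 6970 TPM. Of 13 markers of other cell types 2 were above 1 TPM, Tubb3 (47.1 to 68.4) and Cd68 (8.91 to 11.9), while Adgre1, Myog and Pou5f1 were at 0. Their summed level was 60.3 and 61.1 TPM under vehicle, 74.7 and 74.8 under MASM7, and 80.0 and 72.0 under MFI8. The part of depth, mitochondrial share and these markers in the results below was not tested.

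The 5 fusion genes with reads sat close together and high in the transcriptome, between the 74.8th and 85.8th percentile of the 13994 genes with a mean of at least 1 TPM. By TPM, which allows genes of different length to be compared, Yme1l1 was first and Mfn2 next in all 6 libraries. Opa1 came next in 5 libraries and was level with Parl, at 66.9 and 67.1 TPM, in MASM7 replicate 2. Parl and Mfn1 followed, at group means of 66.0 ± 0.413 and 63.4 ± 0.108 TPM (SD, n = 2) with vehicle. In MFI8 they were 62.0 ± 0.885 and 60.8 ± 2.14 TPM and changed places between the libraries, so their order was not separable from the spread there. The plot of TPM by library shows that the treatments left the order of the levels largely as it was.

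**Figure D1:**
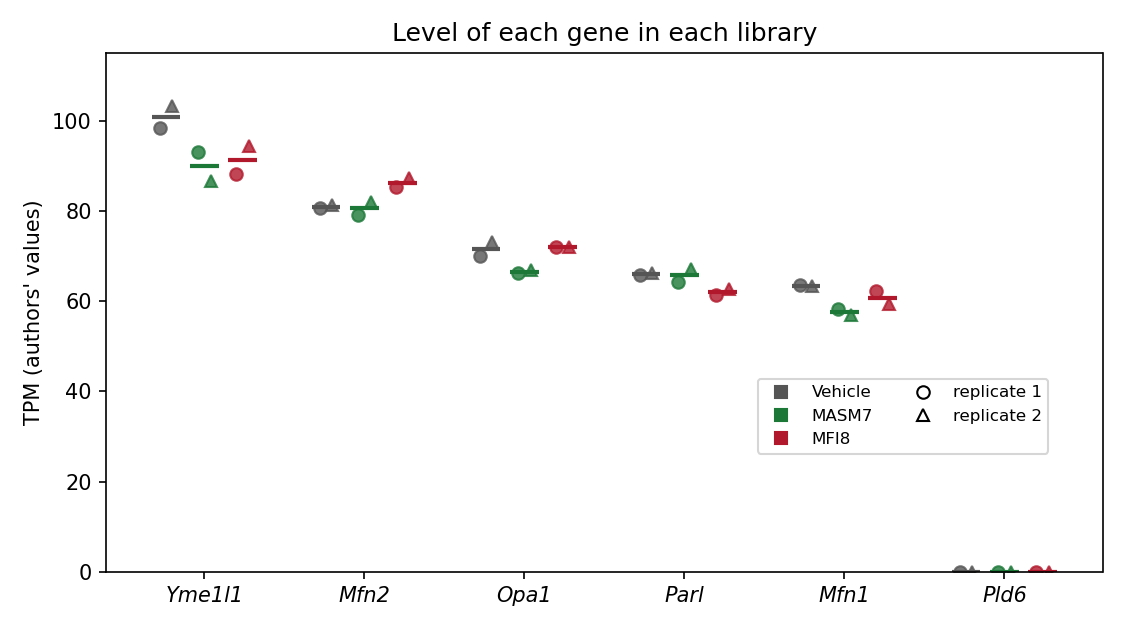
Level of each of the 6 genes in each library, in deposited TPM (vertical axis, from 0), by group (colour) and replicate (symbol), with bars at group means. The highest gene, Yme1l1, lies between 86.7 and 103.3 TPM, Mfn1 between 57.0 and 63.5, and Pld6 at 0 in all 6 libraries.

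Mfn1 transcripts were slightly lower in every treated library than in either vehicle library, by an amount that did not pass the test. Mfn1 measured 63.5 and 63.4 TPM in vehicle libraries, 58.3 and 57.0 under MASM7 and 62.3 and 59.3 under MFI8. Neither treated group overlapped vehicle, though MFI8 replicate 1 lay close to it, and by CPM the treated groups overlapped each other. The log2 fold change was -0.12 with MASM7 (SE 0.0539, 95% interval -0.24 to 0.00, unadjusted p = 0.0484, adjusted p = 0.488 by edgeR's quasi-likelihood test) and -0.09 with MFI8 (SE 0.0541, -0.21 to 0.03, adjusted p = 0.61 by the same edgeR test). Leaving out either MFI8 library moved the latter between -0.05 and -0.12. In bulk RNA, fewer cells expressing a gene and less RNA per cell cannot be told apart, here and for every gene that follows.

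Mfn2, the other mitofusin, was a little higher in the MFI8 libraries than in the rest, by an amount that did not pass the test. Its levels were 80.6 and 81.3 TPM in vehicle libraries, 79.1 and 82.0 under MASM7 and 85.2 and 87.3 under MFI8. Both MFI8 libraries were above all 4 others, while the MASM7 libraries lay on either side of vehicle. The log2 fold change with MFI8 was 0.07 (SE 0.0526, -0.05 to 0.18, adjusted p = 0.707 by edgeR), and with MASM7 it was 0.01 (SE 0.0525, -0.11 to 0.13, adjusted p = 0.963 by edgeR). Offsets for GC content and length took the MFI8 value to 0.01 and the MASM7 value to -0.06. The MASM7 value also turned negative when libraries were scaled by their size alone or TPM was tested, so no direction can be given for it.

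The ratio of the mitofusins within each library was also taken. The Mfn2 to Mfn1 ratio of TPM was 1.27 and 1.28 in vehicle libraries, 1.36 and 1.44 under MASM7 and 1.37 and 1.47 under MFI8. All 4 treated libraries were above both vehicle libraries, and the group means were 1.28 ± 0.00942, 1.40 ± 0.057 and 1.42 ± 0.075 (SD, n = 2). The log2 ratio was 0.131 higher with MASM7 and 0.154 higher with MFI8 than with vehicle, each with an exact two-sided permutation p = 0.333, the smallest that 2 against 2 libraries allow. With offsets for GC content and length, the difference between the log2 fold changes of Mfn2 and Mfn1 was 0.03 with MASM7 and 0.09 with MFI8. The sum of the mitofusins was 144.1 and 144.6 TPM in vehicle libraries, 137.3 and 139.1 under MASM7 and 147.4 and 146.6 under MFI8. By this sum of TPM the MASM7 libraries were the lowest and the MFI8 libraries the highest, by a few percent. The rank of MFI8 holds for TPM and was not examined by CPM. Mean CPM went from 109.7 with vehicle to 103.1 with MFI8 for Mfn1, and from 118.8 to 124.3 for Mfn2.

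Opa1, the inner-membrane fusion GTPase, measured 70.1 and 73.1 TPM in vehicle libraries, 66.2 and 66.9 under MASM7 and 71.9 and 72.0 under MFI8. The MASM7 libraries were below all others, and the MFI8 libraries lay between the vehicle libraries. The log2 fold change was -0.09 with MASM7 (SE 0.0501, -0.20 to 0.02, adjusted p = 0.554 by edgeR) and -0.02 with MFI8 (SE 0.0502, -0.13 to 0.09, adjusted p = 0.928 by edgeR). The MFI8 value was 0.008 when TPM was tested with limma, so its sign is not settled. As percentages, the 95% interval for Opa1 with MFI8 ran from -8.7% to 6.6%.

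Yme1l1, the i-AAA protease gene, had the largest size of change of the 5 genes with either compound in the fit without GC and length offsets, and did not pass the test there. With the offsets this held for MFI8 but not for MASM7, where Mfn1 was at -0.09 and Yme1l1 at -0.05. The ranking also depended on single libraries. Without MFI8 replicate 1, Mfn1 was at -0.123 and Yme1l1 at -0.119 with MFI8. With MASM7 they were at -0.109 and -0.101 without MASM7 replicate 2, and at -0.132 and -0.123 without vehicle replicate 2. Yme1l1 measured 98.4 and 103.3 TPM in vehicle libraries, 93.1 and 86.7 under MASM7 and 88.2 and 94.5 under MFI8. All 4 treated libraries were below both vehicle libraries, with a spread between replicates of the treated groups (SD 4.52 and 4.48 TPM) above that of vehicle (3.42). By CPM the SD was 9.63 with MASM7, 9.88 with MFI8 and 5.68 with vehicle. With MFI8 the log2 fold change was -0.17 (SE 0.0582, -0.30 to -0.04), a change of -11.1%, with unadjusted p = 0.0159 and adjusted p = 0.412 by edgeR. With MASM7 it was -0.15 (SE 0.0581, -0.28 to -0.02), a change of -9.8%, with unadjusted p = 0.0286 and adjusted p = 0.477 by edgeR. The MFI8 call depended on the model: with the replicate number as a block, the adjusted p by edgeR was 0.0352, and with the block and the offsets together it was 0.109. Of all tested genes, 30.2% had a larger change in size with MFI8 and 35.1% with MASM7, while 13.4% and 13.5% had a smaller SE, so many of the larger changes were less precisely measured.

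Parl, the rhomboid protease gene, had its lowest levels in the MFI8 libraries, and the difference did not pass the test. It measured 65.7 and 66.3 TPM in vehicle libraries, 64.3 and 67.1 under MASM7 and 61.4 and 62.6 under MFI8. Both MFI8 libraries were below all 4 others, and the MASM7 libraries lay on either side of vehicle. The log2 fold change was -0.12 with MFI8 (SE 0.0572, -0.24 to 0.01, adjusted p = 0.538 by edgeR) and 0.01 with MASM7 (SE 0.0568, -0.12 to 0.14, adjusted p = 0.963 by edgeR), the latter turning negative under library size alone and under limma on TPM.

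**Figure D2:**
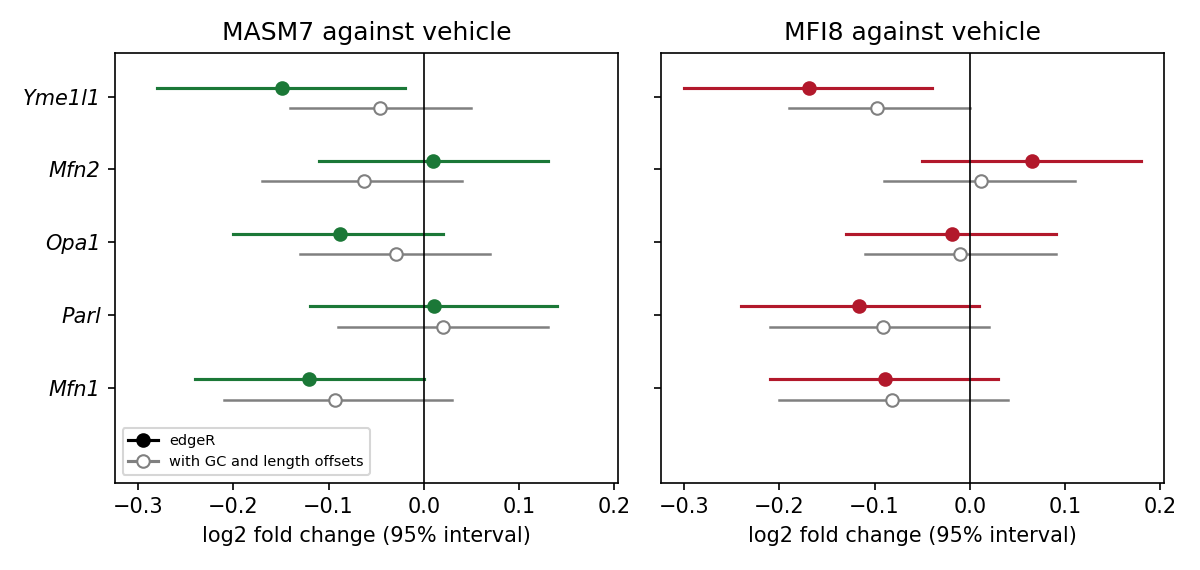
Log2 fold change of the 5 genes with reads against vehicle (horizontal axis), for MASM7 on the left and MFI8 on the right, with 95% intervals from the edgeR fit (filled) and from the same fit corrected for GC content and for transcript length (open). Without offsets only the Yme1l1 intervals (both compounds) and the Mfn1 interval with MASM7, whose upper end rounds to 0.00, lie below 0; with offsets every interval reaches or spans 0 as rounded.

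Ratios of the protease genes to Opa1 were compared in the same way. Yme1l1 to Opa1 was 1.40 and 1.41 in vehicle libraries, 1.41 and 1.30 under MASM7 and 1.23 and 1.31 under MFI8, so that the MFI8 libraries were below vehicle and the MASM7 libraries overlapped it. The log2 ratio with MFI8 was lower by -0.151 than with vehicle (exact two-sided permutation p = 0.333). Parl to Opa1 was 0.938 and 0.906 in vehicle libraries, 0.971 and 1.00 under MASM7 and 0.854 and 0.870 under MFI8. Here the groups separated in opposite directions from vehicle, at log2 differences of 0.098 with MASM7 and -0.097 with MFI8 (exact two-sided permutation p = 0.333 for each, again the smallest possible). With the GC and length offsets, the log2 fold changes of Parl and Opa1 were 0.02 and -0.03 with MASM7, and -0.09 and -0.01 with MFI8, which lie closer together than without them. Oma1, the other OPA1 protease, was lower than Yme1l1 at 30.1 to 35.1 TPM, and Yme1l1 to Oma1 had means (± SD, n = 2) of 2.89 ± 0.123 under vehicle, 2.83 ± 0.0708 under MASM7 and 2.65 ± 0.18 under MFI8.

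**Figure D3:**
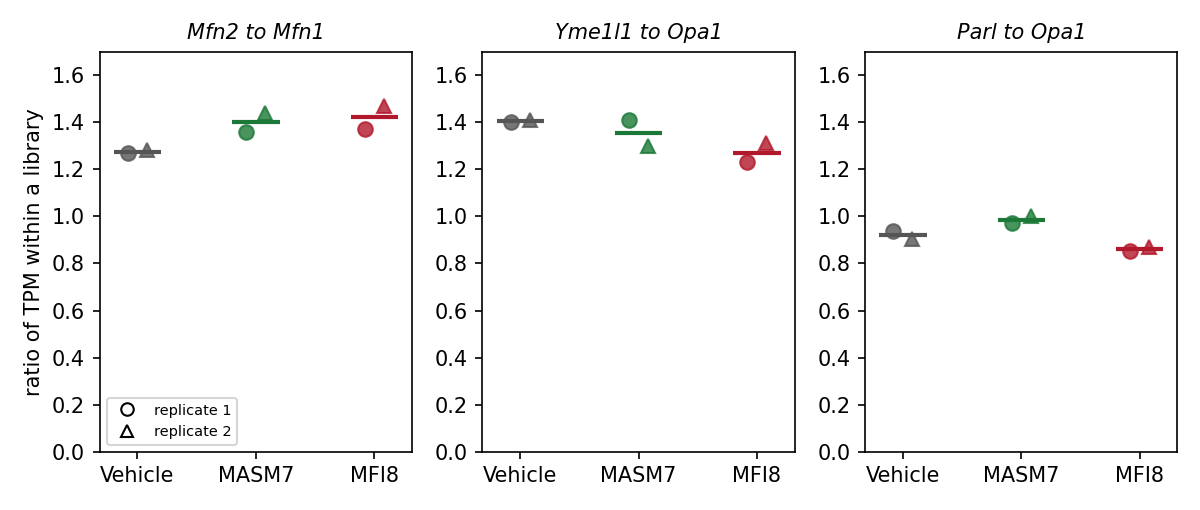
Ratio of TPM values within each library (vertical axis, from 0) for Mfn2 to Mfn1, Yme1l1 to Opa1 and Parl to Opa1, by group, with a symbol for each replicate and a bar at the group mean. Mfn2 to Mfn1 is 1.27 and 1.28 with vehicle and 1.36 to 1.47 in the 4 treated libraries.

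Pld6 was not detected at this depth. It had 0 counts in each library, and 0 of 161954643 reads over all 6. A count of 0 allows up to 3 reads, which is 0.0978 to 0.132 CPM (counts scaled to library size) or 0.196 to 0.268 TPM per library and 0.0185 CPM over all libraries together, a floor for counting error only. Pld6 shared this with 6254 of the 21534 listed protein-coding genes (29.0%). Other phospholipase D genes were read: Pld2 at 17.1 to 20.3 TPM, Pld3 at 20.1 to 25.8 TPM and Pld1 at 0.972 to 1.26 TPM, whereas Pld4 had at most 4 counts and Pld5 had 0. No fold change can be given for Pld6.

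Counted against all genes in the fit without a replicate block, none of the 5 members tested was called. With an adjusted p under 0.05, edgeR's quasi-likelihood test called 0 of 14290 genes (0%) with MFI8 and 0% with MASM7, and DESeq2 called 48 and 2 genes, none of them a member. With the replicate block, edgeR called 720 and 554 genes, among them Yme1l1 with MFI8. At an unadjusted p under 0.05, edgeR passed 1409 genes with MFI8 (9.86%) and 1458 with MASM7 (10.2%), including 1 member (Yme1l1) and 2 members (Yme1l1 and Mfn1). These unadjusted counts, of members and of all genes, fell when some libraries were left out. Leaving out each library in turn gave log2 fold changes of -0.22 to -0.119 for Yme1l1 with MFI8. With MASM7 the range was -0.197 to -0.101 for Yme1l1 and -0.133 to -0.109 for Mfn1. Both MFI8 libraries were below both vehicle libraries for 3 of the 5 members (Mfn1, Yme1l1 and Parl), against 19.3% of tested genes, and above for Mfn2, against 20.9%. Both MASM7 libraries were below vehicle for 3 of 5 (Mfn1, Opa1 and Yme1l1), against 21.6%, and above for 0 of 5, against 21.2%. Both compounds were set against the same vehicle libraries, so these counts are not independent of each other.

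Changes across all genes went with base composition, and the members' values are set beside that trend here. A library effect and an effect of the compounds on GC-poor or GC-rich transcripts cannot be told apart. Offsets for GC content and length would remove either, and the cause of the trend was not tested. Over 7961 well-read genes, the log2 fold change rose with the GC content of the longest transcript, with Pearson's r of 0.673 for MASM7 and 0.443 for MFI8, a description across genes that share libraries. Yme1l1 has the lowest GC content of the 6 (38.0%), lower than all but 7.3% of genes, and Mfn2 the highest of the 5 tested (53.1%). Genes of GC content like that of Yme1l1 had median log2 fold changes of -0.114 with MASM7 and -0.085 with MFI8, and genes like Mfn2 had 0.062 and 0.041. When each library was given offsets that remove its trend with GC content and length, Yme1l1 moved from -0.15 to -0.05 with MASM7 (adjusted p = 0.906 by edgeR) and from -0.17 to -0.10 with MFI8 (adjusted p = 0.657 by edgeR). Opa1 moved from -0.09 to -0.03 with MASM7, and the Mfn2 values after the same step are those given above.

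Mfn1 and Parl were altered less by the same step. Mfn1 stood at -0.09 with MASM7 and -0.08 with MFI8 after the offsets, and Parl at 0.02 and -0.09. The Yme1l1 minus Opa1 difference with MFI8 was -0.15 and -0.09. The plot of log2 fold change against GC content places Opa1 near the line of all genes for MASM7, and Mfn1 and Yme1l1 below that line for both compounds. Parl lay below it with MFI8, at -0.116 against a median of -0.018 for genes of like GC content. With MASM7 Parl lay above it, at 0.011 against -0.039.

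**Figure D4:**
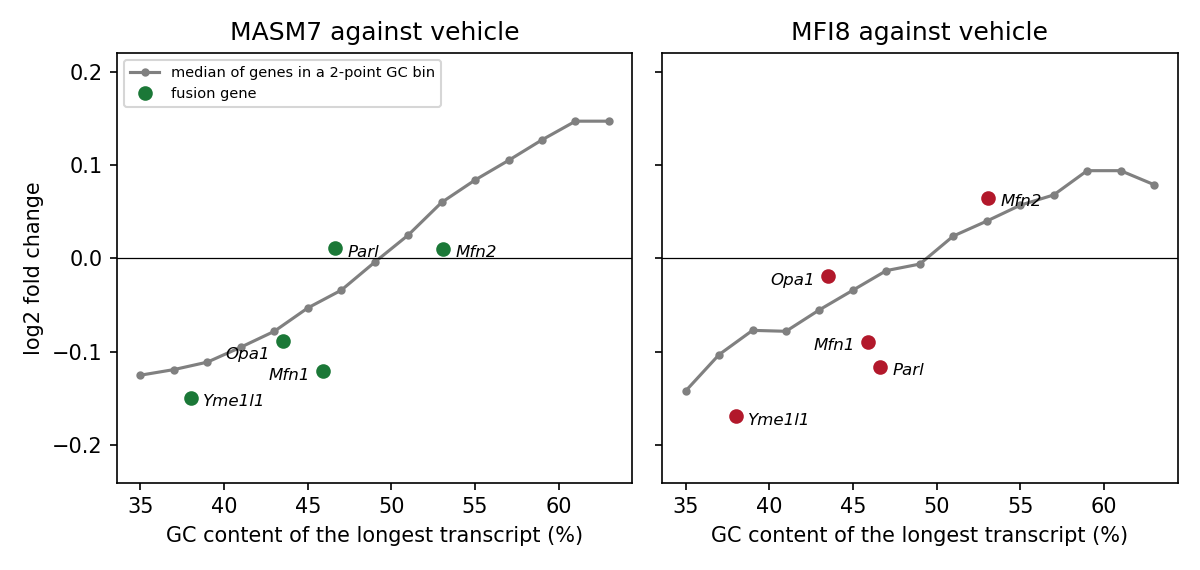
Log2 fold change against vehicle (vertical axis) by GC content of the longest transcript in percent (horizontal axis), for MASM7 (left) and MFI8 (right). The grey line gives medians of well-read genes in bins of GC content, lying between -0.125 and 0.147 for MASM7 and between -0.142 and 0.094 for MFI8; coloured points are the 5 fusion genes with reads.

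Genes around the members were followed through lists of proteases and scaffolds that act with OPA1, substrates of YME1L1 and PARL, mitofusin partners and ubiquitin factors, and fission genes. Of these lists, 12 of 12, 10 of 10, 16 of 17 and 11 of 12 genes were tested, and edgeR called 0 genes in each list with either compound, but with the replicate block it called 2 genes over the lists with MFI8 and 5 with MASM7. Gdap1, of the fission list, had 0 counts in every library. Genes passing at an unadjusted p under 0.05 with MFI8 numbered 1, 0, 2 and 2 in these lists, and with MASM7 6, 1, 4 and 0, where 9.86% and 10.2% of all tested genes passed. With the offsets these counts were 1, 0, 0 and 0 with MFI8 and 0, 1, 1 and 0 with MASM7. Over all 14290 tested genes, the offsets took the number passing from 1409 to 1085 with MFI8 and from 1458 to 802 with MASM7. The medians were 0.039, 0.019, -0.013 and -0.006 with MFI8 and 0.092, 0.065, 0.028 and 0.053 with MASM7, beside medians over all tested genes of 0.003 and 0.001. With the GC and length offsets, the medians were between -0.039 and -0.011 with MFI8 (all genes -0.011) and between -0.033 and 0.030 with MASM7 (all genes -0.020).

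Among the OPA1 proteases and scaffolds, Lonp1, a matrix protease, had a log2 fold change of 0.18 with MFI8 (SE 0.0497, adjusted p = 0.349 by edgeR), and Spg7, a subunit of the m-AAA protease, had 0.11 (adjusted p = 0.608 by edgeR). With MASM7, Htra2, an intermembrane-space protease, and Stoml2, an inner-membrane scaffold, each had 0.19 (adjusted p = 0.466 and 0.468 by edgeR). After the offsets these 4 values were 0.10, 0.05, 0.03 and 0.09. With the replicate block, edgeR called Lonp1 with MFI8 (adjusted p = 0.0144) and Htra2 and Stoml2 with MASM7 (0.021 and 0.0204). With the block and the offsets together it called 0 list genes with either compound against vehicle. In the list of YME1L1 and PARL substrates, Timm17a, a subunit of the inner-membrane import channel, had -0.07 and Romo1 0.12 with MFI8, and Prelid1, a lipid transfer protein degraded by YME1L1, had 0.12 and Stard7, a lipid transfer protein cut by PARL, had -0.09 with MASM7. Offsets gave -0.07, 0.11, -0.01 and -0.14 for these.

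Among the mitofusin partners, Slc25a46, an outer-membrane carrier protein, had -0.21 with MASM7 (SE 0.0575, adjusted p = 0.466 by edgeR) and -0.13 after the offsets. Huwe1, a ubiquitin ligase that acts on MFN2, had 0.17 with MFI8 (adjusted p = 0.361 by edgeR) and 0.05 after, Trak1, a motor adaptor, had 0.16 and 0.07, and Bak1, an outer-membrane apoptosis factor, had 0.15 with MASM7 and 0.02. Fission genes went from -0.40 to 0.25 with MFI8, and the gene at -0.40 did not pass at an unadjusted p under 0.05 by edgeR. Mief2, a receptor for the fission GTPase, had 0.25 (SE 0.104, adjusted p = 0.464 by edgeR) and Mff, another receptor, had -0.14, moving to 0.17 and -0.06 with offsets. With MASM7, Mtfr2 had -0.24 and Inf2, a formin, had 0.17, moving to -0.20 and 0.02. The edgeR fit with the replicate block called Huwe1 with MFI8 (adjusted p = 0.0245) and Slc25a46 and Inf2 with MASM7 (0.0313 and 0.0334). None of these was called with the block and the offsets together.

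Set against each other, with the caution that their doses differ, MFI8 and MASM7 gave no difference in a member that passed the test. EdgeR called 0 of 14290 genes (0%) and passed 1026 at an unadjusted p under 0.05 (7.18%), none of them a member, and DESeq2 called 29. The unadjusted count was 652 without MASM7 replicate 2 and 613 without MFI8 replicate 2, again with 0 members. Parl stood apart most, at 66.4 and 67.7 CPM with MFI8 against 71.5 and 74.9 with MASM7, a log2 difference of -0.13 (SE 0.0567, -0.25 to 0.00, adjusted p = 0.69 by edgeR). Mfn2 differed by 0.06 (-0.06 to 0.17), Opa1 by 0.07 (-0.04 to 0.18), Mfn1 by 0.03 (-0.09 to 0.15) and Yme1l1 by -0.02 (-0.15 to 0.11). With the GC and length offsets these were 0.08, 0.02, 0.01 and -0.05, and Parl was at -0.11. Leaving out each library in turn gave 0.026 to 0.086 for Mfn2, and the values of Mfn1 and Yme1l1 changed sign. All 5 intervals span 0, that of Parl barely (unadjusted p = 0.0507 by edgeR), which does not show that the compounds act alike.

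Across the 6 libraries, the members did not share a single pattern. Pearson's r of log2 CPM was 0.66 between Mfn1 and Opa1 and 0.64 between Mfn1 and Yme1l1, and -0.45 between Mfn1 and Mfn2 (n = 6 libraries, which share depth and base composition). Genes among the most like each member were Mindy3 (r = 0.992), Gm5830 and Ccdc25 for Mfn1, Abcb10 (0.995), Psmg2 and A930012L18Rik for Mfn2, and, for Opa1, Insig2 (0.997) and Mtmr1. For Yme1l1 they were Zfp148 (0.993), Slc35a1 and Hectd2, and for Parl Uchl4 (0.986), C430049B03Rik and Rpl21. Between 123 and 218 genes passed an r of 0.9 with a given member, so high values were common with so few libraries.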

How the data were processed

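Doses and treatment time come from the study's own text, not the labels. RNA was poly-A selected, made into libraries with an Illumina TruSeq kit and sequenced. Per the labels, the authors' processing notes name bcl2fastq, Trimmomatic, STAR, featureCounts and DESeq2 with mm10/GRCm38. Versions of the tools other than DESeq2, the annotation release, gene lengths and strand setting are not given in the sources used here. The deposited raw counts per gene, and TPM as the authors computed it, were used; the deposited normalised counts were not. Total counts ran from 22791792 to 30677751 per library, and counting floors cover counting error only. Counts were tested with edgeR 4.0.16 (limma 3.58.1, R 4.3.3): TMM scaling, filterByExpr, all 6 libraries in 1 quasi-likelihood fit, and Benjamini-Hochberg adjustment over 14290 genes at 0.05. SE is the size of the log2 fold change over the root of F. The p-values rest on the spread between the 2 libraries of each group, pooled over the 3 groups and moderated across genes. Each tested member had 9.86 degrees of freedom. CPM used TMM library sizes, with a prior count of 2 on the log scale. GC content and length came from GENCODE vM21 (53292 of 55291 symbols matched), and promoters from RefSeq on GRCm38.p6. The text names the 6 members, the 2 genes with the smallest p of each list and compound (no listed gene was called in the main model), and the 3 genes most correlated with each member, except for a few items that are not reported here. Members and lists were chosen with earlier results of these data known. Alternatives were DESeq2 1.42.0, limma on log2(TPM + 1) and log2(TPM + 0.1), other scalings and filters, GC and length offsets, a replicate block and leaving out each library. The code of the fits was also run on simulated counts, and the outcome is not given here. Scripts ran in Python 3.11.15 with pandas 2.3.3 and matplotlib 3.10.9.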

Additional observations from a re-analysis of the deposited data

How the results depend on the processing

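For all genes, counts past the threshold were 0 in each comparison but 256 (MFI8 against vehicle), 127 (MASM7 against vehicle) and 168 (MFI8 against MASM7) with no filter on low counts, and 48, 2 and 29 with DESeq2. With only the 2 groups compared in the fit, 1 gene was called for MASM7 against vehicle and 2 for MFI8 against MASM7, and limma on unfiltered TPM called 13 for MASM7 against vehicle. Leaving out each library in turn gave 0 to 26, 0 to 2 and 0 to 24 genes, with 26 and 24 reached without MFI8 replicate 1. No member was called in any of these. The cause was not tested.

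The labels number the replicates 1 and 2 but tie no number to a shared day or batch. Whether libraries of the same number share a preparation is therefore not known. Differences between replicates 2 and 1 correlated between groups, with r = 0.152 to 0.188 over all tested genes and 0.508 to 0.621 over the 7145 better-read genes. This is a hint from the data of a shared effect. The replicate block called 720, 554 and 439 genes in the same order, and 590, 114 and 600 with GC and length offsets as well. With the block, 1 fusion gene was called, Yme1l1 with MFI8 (-0.169, adjusted p = 0.0352 by edgeR), which was not called with the offsets added (adjusted p = 0.109). It called 2 list genes with MFI8 (Huwe1, Lonp1) and 5 with MASM7 (Clpp, Htra2, Inf2, Slc25a46, Stoml2), and with the offsets 1 for MFI8 against MASM7 (Timm17a).

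Signs turned for values near 0. Opa1 with MFI8 was 0.008 by limma on TPM. Mfn2 with MASM7 was -0.001 by library size alone, -0.007 by limma, -0.063 with the offsets and -0.063 with the block and offsets. Parl with MASM7 was -0.00025 by library size alone and -0.006 by limma. Yme1l1 for MFI8 against MASM7 was 0.001 and 0.022. Leaving out a library gave -0.039 to 0.003 for Opa1 with MFI8, -0.020 to 0.040 for Mfn2 and -0.023 to 0.044 for Parl with MASM7, and -0.001 to 0.068 for Mfn1 and -0.072 to 0.031 for Yme1l1 between the compounds. The other members' values kept their sign in every alternative. With 2 libraries a group, the fit without a block separated no member's change from 0 after adjustment.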
